A study of Mus musculus with 9 samples.

Results

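Homologous recombination and the Fanconi anaemia pathway repair broken DNA and crosslinked DNA with an intact copy as the template. The 38 genes of these pathways described here were found by their symbols among the 32137 genes of the count files, and all 38 passed the filter on low counts. They span the sensing and resection of broken ends, the checkpoint kinases, the BRCA proteins, the recombination mediators, the Fanconi core and ID complexes, and nucleases and helpers that act later. RNA sequencing gave their levels in 9 libraries of cells sorted from mouse bile duct organoids, grown from 1 male animal of mixed background and differentiated for 11 days. Every organoid carried the Axin2CreERT2+/- and R26-LSL-tdTom+/- alleles, so that tamoxifen switches on the red tdTom reporter in cells using the Axin2 promoter. In the last 24 h all cultures had dexamethasone (3 uM) and 4-hydroxytamoxifen (500 nM). The untreated group held tdTom negative cells of cultures without Rspo1, and the other two groups held tdTom negative and tdTom positive cells of cultures given R-spondin 1 (Rspo1), a secreted amplifier of Wnt signalling, at 100 ng/ml. Each group had 3 libraries, 1 each at organoid passages 5, 6 and 10. The 3 groups include no tdTom positive cells of cultures without Rspo1, so treatment and reporter both differ between tdTom positive and untreated cells. Because every library traces to this animal, error bars and tests describe cultures and not animals.

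In cells that replicate their DNA, Brca2 and its partners prepare resected ends for strand exchange, in which the broken end is paired with the matching sequence of the sister chromatid. The Fanconi core complex adds ubiquitin to the Fancd2 and Fanci pair at a crosslink, which brings in the nucleases that cut it out. These genes are mostly used in S and G2 phase, when a sister copy exists, and many are transcribed under E2F factors together with replication genes. In the healthy liver most cholangiocytes, the cells that line bile ducts, are at rest.

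Total counts were 23423979 to 37351448 per library, and the members had 7 to 3902 counts in a library, so precision was lowest for Rad51b and its like. Axin2, the gene behind the reporter, was 5.30 log2 units higher in tdTom positive than in untreated cells and 4.98 higher in tdTom negative Rspo1 cells than in untreated cells. It did not differ detectably between the 2 Rspo1 sorts (log2 fold change 0.31, edgeR adjusted p = 0.28). The 8 biliary markers summed to 8470 to 10500 CPM (reads of a gene relative to the reads of its library) in untreated, 9280 to 10900 CPM in tdTom negative Rspo1 and 7530 to 7570 CPM in tdTom positive libraries. The summed level of 8 hepatocyte markers was 164 to 545 CPM, with 5 of the 8 under 1 CPM. The mesenchymal and endothelial markers found in the files summed to under 1 CPM in every library (0.167 to 0.95 and 0.259 to 0.812), with Cdh5 at 0. The immune markers summed to 5.51 to 23.3 CPM, with 4 of the 5 found in the files under 1 CPM.

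Against untreated cells, tdTom positive cells had more RNA of the repair genes. Of the 38 members, 26 were higher at an adjusted p under 0.05 in edgeR's quasi-likelihood test with passage as a block and Benjamini-Hochberg adjustment over 17011 genes. Of all genes tested, 13.2% were called in either direction, and 48.7% of those called were higher. All 38 members had a positive log2 fold change, from 0.08 to 3.07 with a median of 0.96, where the median of all genes was -0.00. The 3 tdTom positive libraries lay above the 3 untreated libraries without overlap for 32 members, where 23.2% of all genes were free of overlap. Summed over the 38 members, the level was 368 to 413 CPM in untreated libraries and 619 to 696 CPM in tdTom positive libraries. The sum in tdTom negative Rspo1 libraries was 382 to 420 CPM, which overlapped the untreated ones. In bulk RNA, a larger share of cells with these transcripts and more transcripts per cell cannot be told apart.

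The sum of 30 proliferation genes (cell-cycle and replication genes such as Mki67) moved with this comparison. It was 463 to 634 CPM in untreated, 925 to 1150 in tdTom negative Rspo1 and 1730 to 1970 in tdTom positive libraries, and 29 of the 30 genes were higher in tdTom positive than in untreated cells by edgeR. The biliary marker sum moved the other way and was lowest in the 3 tdTom positive libraries. The part of either in the result was not tested.

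**Figure D1:**
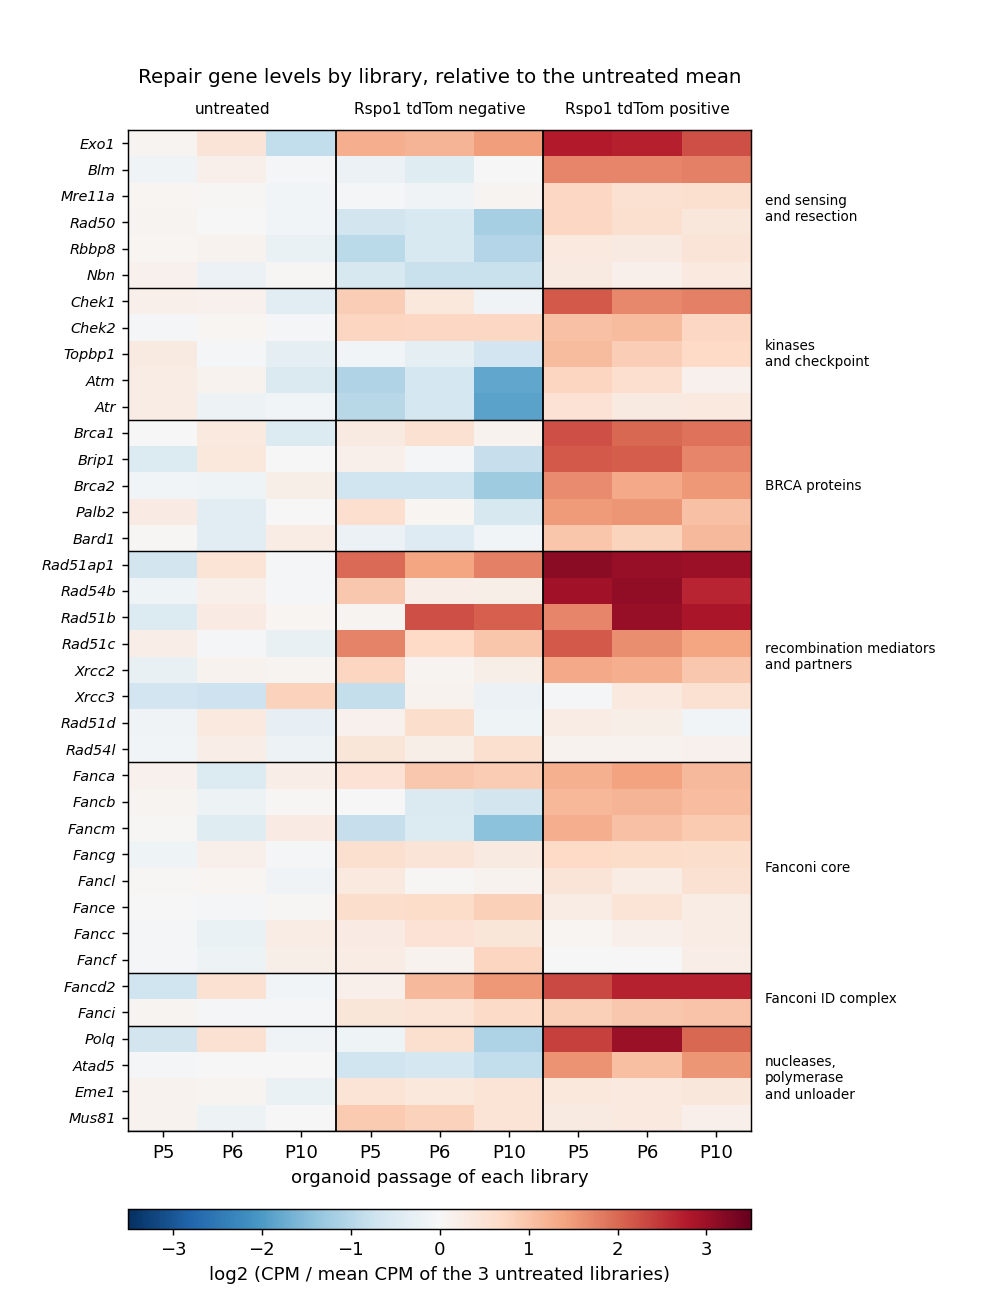
Level of each of the 38 repair genes (rows, grouped by role) in the 9 libraries (columns), as log2 of CPM over the mean CPM of the 3 untreated libraries. The tdTom positive columns are mostly red, darkest in Rad51ap1 and Rad54b, while the tdTom negative Rspo1 columns are blue for Atm, Atr, Rad50, Rbbp8 and Brca2.

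Within Rspo1-treated cultures, tdTom positive cells again had the higher levels of most members. By edgeR 25 members were higher and 2 lower than in tdTom negative cells, and the median of the 38 log2 fold changes was 1.21. A count of this size stands beside a large background, since 38.9% of all genes were called in this comparison. Without overlap between the libraries were 26 members higher and 4 lower, beside 45.2% of all genes. The tdTom negative Rspo1 cells against untreated cells had 13 members higher and 9 lower, with a median of 0.29, beside 35.5% of all genes called. Of those called genes 43.8% were higher, and 54.2% with upper-quartile scaling. There 12 members were higher and 8 lower without overlap, beside 36.3% of all genes. The 3 comparisons share libraries in pairs, so their values are set side by side and not counted as separate evidence.

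The tdTom negative Rspo1 libraries also differed from the rest by the make-up of the transcripts. Across 17001 genes the rank correlation of the log2 fold change with GC content was 0.499 for tdTom negative Rspo1 against untreated cells, -0.506 for tdTom positive against tdTom negative Rspo1 cells and -0.0131 for tdTom positive against untreated cells. With transcript length it was -0.309, 0.314 and 0.00799 in the same order; genes are not independent replicates. The members are low in GC and long: their median GC content was 46.0% against 49.9% for all tested genes, and their median longest transcript 4214 bases against 2898. For this reason the log2 fold changes of members that involve the tdTom negative Rspo1 cells are given also with an offset that removes the trend of each library with GC content and length. With the offset, 26 members were higher in tdTom positive than in untreated cells, beside 16.2% of all genes called. In tdTom positive against tdTom negative Rspo1 cells 22 members were higher and 1 lower with a median of 0.68, beside 23.5% of all genes, of which 40.9% were higher in place of 55.3% without the offset. In tdTom negative Rspo1 against untreated cells 14 members were higher and 1 lower with a median of 0.30, beside 20.9% of all genes. The source of the trend was not tested.

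**Figure D2:**
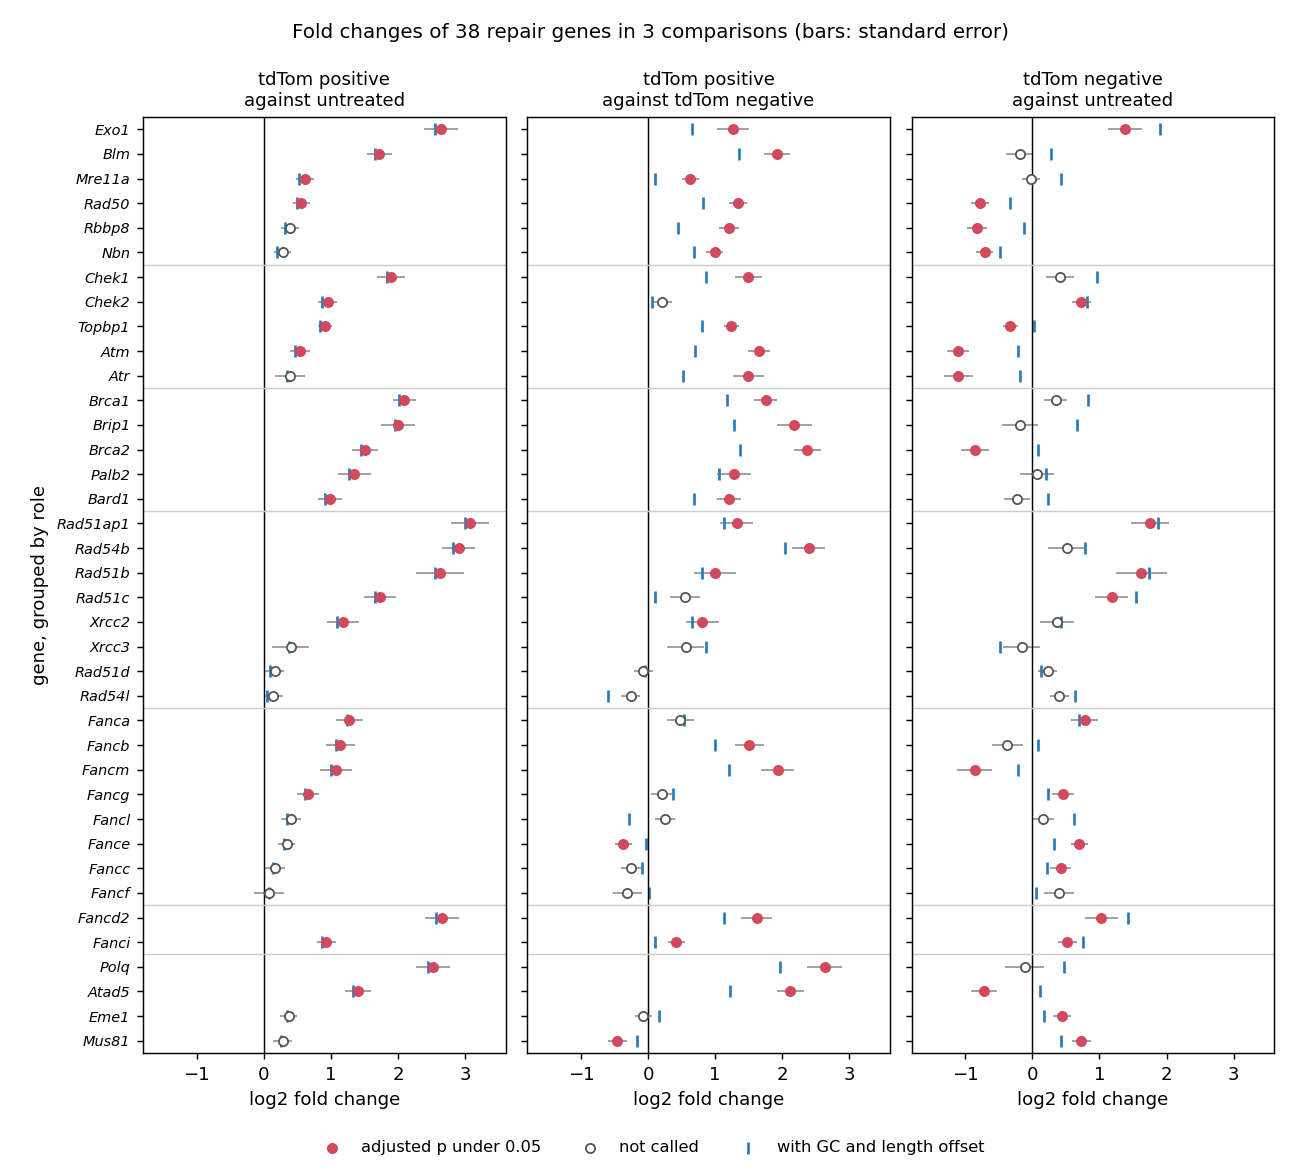
Log2 fold change of the 38 repair genes in the 3 comparisons, with the standard error as bars. Red points have an edgeR adjusted p under 0.05, open points do not, and blue ticks show the value with the GC and length offset. In the left panel the ticks sit on the points, and in the right panel the ticks of Atm, Atr and Brca2 lie close to 0.

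Of the 6 genes that sense and resect broken ends, 4 were higher in tdTom positive than in untreated cells. Mre11a, Rad50 and Nbn form the complex that binds a broken end, Rbbp8 (CtIP) starts the trimming, and the nuclease Exo1 and the helicase Blm extend it. Exo1 (ENSMUSG00000039748, GRCm38 chr1:175880581-175913489, plus strand) was at 2.59, 3.31 and 1.32 CPM in untreated, 5.86, 5.51 and 6.61 in tdTom negative Rspo1 and 16.6, 15.8 and 11.6 in tdTom positive libraries at passages 5, 6 and 10. The 3 groups did not overlap in Exo1, and its log2 fold change of tdTom positive against untreated cells was 2.64 (SE 0.25, edgeR adjusted p = 4.63e-05). Exo1 was also higher in tdTom negative Rspo1 than in untreated cells by 1.38, and by 1.90 with the offset. Its difference between the sorts, 1.26, became 0.65 with the offset and was then not called (edgeR adjusted p = 0.094). Blm stayed at 2.31 to 2.81 CPM in untreated and 1.85 to 2.5 CPM in tdTom negative Rspo1 libraries, and stood at 8.08, 8.2 and 8.42 CPM in tdTom positive libraries. Its rise against untreated cells was 1.72 (SE 0.19) and against tdTom negative Rspo1 cells 1.92, or 1.36 with the offset.

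In tdTom positive against untreated cells the members of the end-binding complex moved less than Exo1 and Blm. Rad50 was at 29.3, 27.1 and 25.9 CPM in untreated, 17.7, 18.8 and 12.2 in tdTom negative Rspo1 and 45.2, 40.8 and 36.4 in tdTom positive libraries, so the 3 groups were again separate. Against untreated cells it rose by 0.56 (SE 0.13, edgeR adjusted p = 0.015) in tdTom positive cells and fell by 0.78 in tdTom negative Rspo1 cells; with the offset the second value was -0.33 (edgeR adjusted p = 0.057). The rise of Rad50 lost its call without tdTom positive replicate 1 or 3 or untreated replicate 1 (edgeR adjusted p up to 0.0896) and without the passage block (0.0955). Mre11a rose by 0.61 against untreated cells, a call lost without tdTom positive replicate 1 (edgeR adjusted p = 0.0656). Against tdTom negative Rspo1 cells it rose by 0.63, and with the offset by 0.10, which was not called. Its difference between tdTom negative Rspo1 and untreated cells was -0.02, turned to 0.05 with upper-quartile scaling and was called at 0.43 with the offset. Nbn and Rbbp8 had uncalled log2 fold changes of 0.28 and 0.39 in tdTom positive against untreated cells. Both were lower in tdTom negative Rspo1 than in untreated cells, Nbn by a log2 fold change of -0.71 and Rbbp8 by -0.82. With the offset Nbn remained lower at -0.48 (edgeR adjusted p = 0.0207), the sole member to do so, and Rbbp8 had -0.13. Between the sorts Nbn and Rbbp8 were higher in tdTom positive cells by 0.99 and 1.21. With the offset these differences were 0.68 and 0.44, and both were called with and without it.

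The checkpoint genes relay the signal: Atm answers broken ends, Atr single-stranded DNA, Topbp1 activates Atr, and Chek1 and Chek2 are the kinases they switch on. Of these 5 genes 4 were higher in tdTom positive than in untreated cells. Chek1 had the largest rise of these 5, from 2.59, 2.58 and 1.76 CPM in untreated to 10.3, 7.42 and 7.89 CPM in tdTom positive libraries (log2 fold change 1.90, SE 0.21). Its tdTom negative Rspo1 libraries, at 4.21, 2.96 and 2.12 CPM, overlapped the untreated ones, with a log2 fold change of 0.41 that became 0.97 and was called with the offset. Chek2 was at 8.06 to 8.83 CPM in untreated, 13.8 to 14.0 in tdTom negative Rspo1 and 13.7 to 17.9 in tdTom positive libraries. It rose by 0.95 against untreated cells in tdTom positive cells and by 0.73, or 0.81 with the offset, in tdTom negative Rspo1 cells. The sorts did not differ detectably from each other (0.21, SE 0.14, edgeR adjusted p = 0.249, and 0.06 with the offset).

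Topbp1 was at 55.5, 42.3 and 36.1 CPM in untreated and 96.1, 81.0 and 72.4 CPM in tdTom positive libraries, a rise of 0.91 (SE 0.11, edgeR adjusted p = 0.000201). In tdTom negative Rspo1 libraries it was at 41.7, 36.0 and 28.2 CPM, which overlapped the untreated ones. Its log2 fold change of -0.33 there was called (edgeR adjusted p = 0.0327), but not with upper-quartile scaling, with DESeq2, without the low-count filter, without the passage block or with the offset (0.03). That call also failed in 7 of the 9 leave-one-out fits, all but those without untreated replicate 2 or tdTom negative Rspo1 replicate 2 (edgeR adjusted p up to 0.183). Atm (ENSMUSG00000034218, chr9:53439149-53536740, minus strand) was at 29.0, 26.4 and 16.9 CPM in untreated, 11.6, 15.8 and 6.86 in tdTom negative Rspo1 and 40.7, 36.4 and 26.6 CPM in tdTom positive libraries. Passage 10 had the lowest value of each group. Atm fell by 1.11 (SE 0.16) in tdTom negative Rspo1 against untreated cells, and with the offset its value was -0.22 (edgeR adjusted p = 0.214). Its rise of 0.54 in tdTom positive against untreated cells (edgeR adjusted p = 0.0395) was not called in 7 of the 9 leave-one-out fits, all but those without tdTom negative Rspo1 replicates 2 or 3 (edgeR adjusted p up to 0.21, without tdTom positive replicate 3). Without the passage block that p was 0.415. Atr showed 22.8, 17.0 and 17.8 CPM in untreated, 9.71, 12.6 and 5.25 in tdTom negative Rspo1 and 27.4, 23.8 and 24.2 CPM in tdTom positive libraries. Its value against untreated cells was -1.1 in tdTom negative Rspo1 cells, or -0.18 with the offset, and 0.39 in tdTom positive cells, which was not called. Between the sorts the kinases Atm and Atr differed by 1.65 and 1.49 without and by 0.70 and 0.52 with the offset, and all 4 values were called.

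The RNAs of the BRCA proteins rose together in tdTom positive cells: all 5 were called higher against both other groups, with and without the offset. Brca1, which with Bard1 forms a ubiquitin ligase that favours recombination (ENSMUSG00000017146, chr11:101488764-101551955, minus strand), was at 5.69, 7.19 and 4.06 CPM in untreated, 6.97, 8.19 and 6.14 in tdTom negative Rspo1 and 27.2, 22.8 and 21 CPM in tdTom positive libraries. Both tdTom negative groups overlapped, and every tdTom positive library stood well above them. Brca1 rose by 2.09 (SE 0.17, edgeR adjusted p = 1.62e-05) against untreated and by 1.75 (SE 0.17) against tdTom negative Rspo1 cells, the latter 1.17 with the offset. Its change in tdTom negative Rspo1 against untreated cells, 0.35, was called only without untreated replicate 2 (edgeR adjusted p = 0.0304) and with the offset (0.83). Bard1 rose by 0.98 (SE 0.18) against untreated cells and the bridging protein Palb2 by 1.35 (SE 0.25). The helicase Brip1 rose from 1.54, 2.78 and 2.13 CPM in untreated to 9.53, 9.38 and 7.08 CPM in tdTom positive libraries, by 2.00 (SE 0.25).

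Brca2, which prepares resected ends for strand exchange (ENSMUSG00000041147, chr5:150522630-150570329, plus strand), was at 4.43, 4.28 and 5.41 CPM in untreated, 2.9, 2.88 and 1.99 in tdTom negative Rspo1 and 14.9, 11.9 and 13.6 CPM in tdTom positive libraries. The 3 groups were separate, with the tdTom negative Rspo1 cells lowest. Brca2 rose by 1.51 (SE 0.19, edgeR adjusted p = 0.000353) in tdTom positive cells and fell by 0.86 (SE 0.21, edgeR adjusted p = 0.00848) in tdTom negative Rspo1 cells against untreated ones. The fall was not called without tdTom negative Rspo1 replicate 3 (edgeR adjusted p = 0.0638), and with the offset its sign turned (0.08, edgeR adjusted p = 0.787). The difference between the sorts, 2.37, was 1.37 with the offset (edgeR adjusted p = 0.000867).

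**Figure D3:**
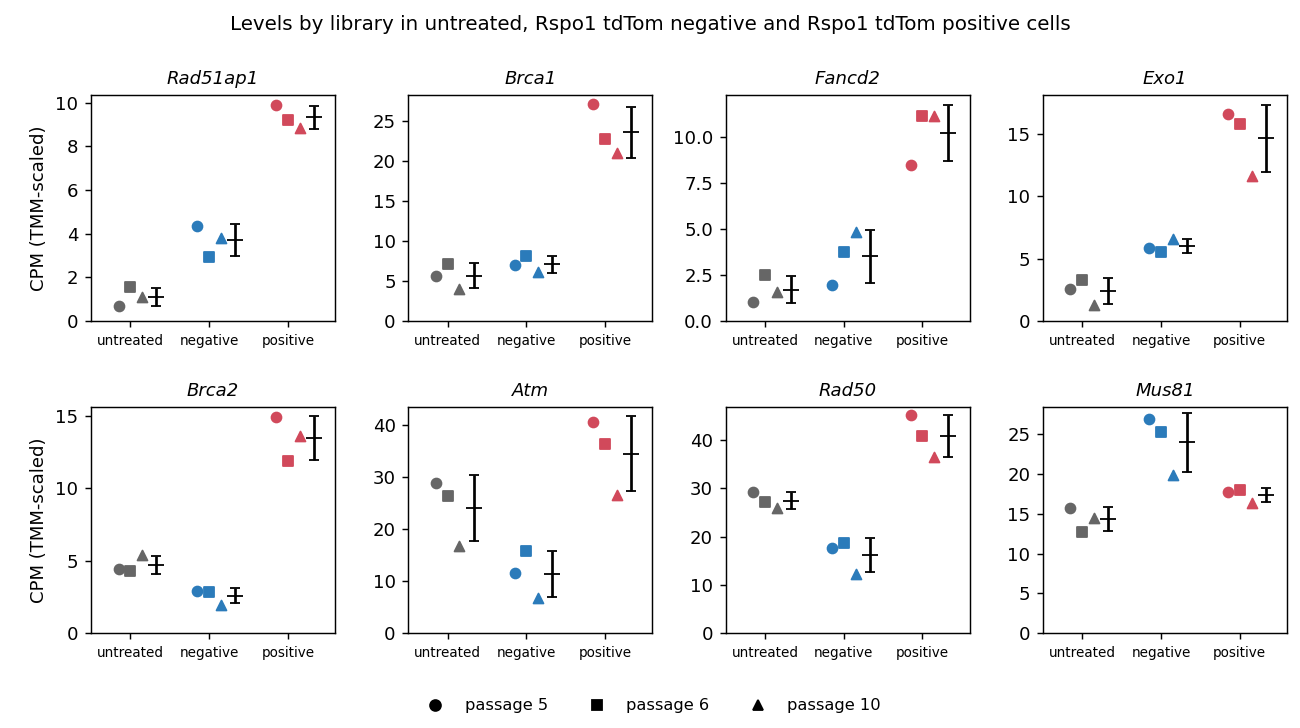
CPM of 8 repair genes in each library, with passages 5, 6 and 10 as circles, squares and triangles, and the mean and SD of the 3 libraries in black. The tdTom positive libraries lie above all others for the first 5 genes and Rad50, Atm overlaps between tdTom positive and untreated libraries, tdTom negative Rspo1 libraries are lowest for Brca2, Atm and Rad50, and Mus81 is highest in tdTom negative Rspo1 libraries.

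Of the 8 recombination mediators and partners, 5 were higher in tdTom positive than in untreated cells. Rad51ap1, which helps a broken end invade the matching duplex (ENSMUSG00000030346, chr6:126923050-126939587, minus strand), had the largest rise of all members, from 0.708, 1.54 and 1.09 CPM in untreated to 9.9, 9.21 and 8.84 CPM in tdTom positive libraries (log2 fold change 3.07, SE 0.28, edgeR adjusted p = 3.26e-05). Its tdTom negative Rspo1 libraries lay between, at 4.36, 2.92 and 3.81 CPM, with a rise of 1.75 over untreated cells and 1.87 with the offset. Rad54b, a motor protein that moves along DNA during recombination, went from 0.862, 1.07 and 0.921 CPM in untreated to 7.34, 8.13 and 6.02 CPM in tdTom positive libraries, a rise of 2.90 (SE 0.25). Its tdTom negative Rspo1 libraries, at 1.1 to 1.84 CPM, lay above the untreated ones without overlap, but the difference was not called (0.51, edgeR adjusted p = 0.162, and 0.79 with the offset, 0.055). Rad54b shares 35.8% of its exon bases with Fsbp on the same strand, so reads from those bases fit both genes. Such reads could have been left uncounted or counted for either gene, which was not tested. Its relative Rad54l did not follow: it was at 34.0, 43.1 and 32.0 CPM in untreated and 39.6, 39.7 and 40.4 CPM in tdTom positive libraries, a log2 fold change of 0.14 (SE 0.14, edgeR adjusted p = 0.624). In tdTom negative Rspo1 libraries Rad54l was at 48.6, 41.6 and 53.4 CPM, with a value of 0.40 against untreated cells (edgeR adjusted p = 0.051) that was called at 0.64 with the offset, and also with DESeq2, with upper-quartile or relative log expression scaling and without the low-count filter. With the offset it was lower in tdTom positive than in tdTom negative Rspo1 cells (-0.59, edgeR adjusted p = 0.0209). Rad54l shares 15.4% of its exon bases with Lrrc41, on the opposite strand.

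The 5 mediators Rad51b, Rad51c, Rad51d, Xrcc2 and Xrcc3 assemble in complexes that assist strand exchange. Rad51b was at 0.215, 0.368 and 0.317 CPM in untreated, 0.319, 1.44 and 1.27 in tdTom negative Rspo1 and 0.985, 2.5 and 2.18 CPM in tdTom positive libraries, and passage 5 was lowest in all 3 groups. It rose by 2.62 (SE 0.36) in tdTom positive and 1.62 (SE 0.38), or 1.74 with the offset, in tdTom negative Rspo1 cells against untreated ones; the second call was lost without the passage block (edgeR adjusted p = 0.063). The difference between the sorts, 1.0 (edgeR adjusted p = 0.0271), was lost in 5 of the 9 leave-one-out fits, those without any tdTom positive replicate or without tdTom negative Rspo1 replicates 1 or 3 (edgeR adjusted p up to 0.152). It was also lost with DESeq2 (0.0573), without the passage block (0.234) and with the offset (log2 fold change 0.81, 0.0831). Rad51c rose in both Rspo1 sorts, by 1.73 (SE 0.24) and 1.18 (SE 0.25), the latter 1.54 with the offset, with 2.57 to 4.38 and 1.6 to 3.33 CPM against 0.835 to 1.17 CPM in untreated libraries. Xrcc2 rose by 1.18 (SE 0.24) in tdTom positive cells, a call lost without tdTom positive replicate 2 (edgeR adjusted p = 0.0559). Its difference of 0.81 between the sorts was lost in 4 of the 9 leave-one-out fits, those without tdTom positive replicates 1 or 2 or tdTom negative Rspo1 replicates 2 or 3 (edgeR adjusted p up to 0.0985), and with the offset (log2 fold change 0.66, 0.0606). Rad51d and Xrcc3 were not called in any of the 3 comparisons. Rad51d was at 15.5 to 24.2, 17.0 to 29.0 and 17.8 to 22.9 CPM in untreated, tdTom negative Rspo1 and tdTom positive libraries. Xrcc3 was at 5.35, 5.18 and 15 CPM in untreated libraries, where the passage 10 library stood apart. Without that library, untreated replicate 3, it was called higher in tdTom positive than in both other groups. Its difference between the sorts, 0.56, was also called without replicate 2 of untreated or tdTom negative Rspo1 cells, without the low-count filter and with the offset (0.86, edgeR adjusted p = 0.0409).

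Of the 8 Fanconi core genes 4 were higher in tdTom positive than in untreated cells. Fanca, the gene most often mutated in Fanconi anaemia, was at 12.8, 8.29 and 13.7 CPM in untreated, 16.4, 22.1 and 21.6 in tdTom negative Rspo1 and 27.6, 30.5 and 25.4 CPM in tdTom positive libraries. The groups did not overlap, and Fanca rose by 1.27 (SE 0.20) and 0.78 (SE 0.20) against untreated cells in the tdTom positive and tdTom negative Rspo1 cells, the latter 0.70 with the offset. Its difference of 0.48 between the sorts was not called (edgeR adjusted p = 0.0723), but it was called at 0.54 with the offset and without untreated replicate 2 (edgeR adjusted p = 0.00761). Fancb was at 2.15, 1.77 and 2.07 CPM in untreated and 4.48, 4.52 and 4.23 CPM in tdTom positive libraries, a rise of 1.14 (SE 0.22). Its tdTom negative Rspo1 libraries were at 1.97, 1.4 and 1.27 CPM, and the difference between the sorts was 1.51, or 0.99 with the offset. Fancm, the motor protein that anchors the core on DNA, was at 6.22, 4.48 and 7.31 CPM in untreated, 3.43, 4.32 and 2.24 in tdTom negative Rspo1 and 14.4, 12.3 and 11.4 CPM in tdTom positive libraries. Fancm rose by 1.07 (SE 0.24, edgeR adjusted p = 0.0135) in tdTom positive cells against untreated ones. That call was lost without any tdTom positive replicate or without untreated replicate 1 (edgeR adjusted p up to 0.0713). Its fall of 0.86 in tdTom negative Rspo1 cells (edgeR adjusted p = 0.0235) was lost without replicate 1 or 3 of either group compared (edgeR adjusted p up to 0.147), and was -0.21 with the offset. Fancg rose by 0.66 (SE 0.16, edgeR adjusted p = 0.0197), a call lost in 5 of the 9 leave-one-out fits, those without any tdTom positive replicate or untreated replicates 1 or 3 (edgeR adjusted p up to 0.129), and without the passage block (0.0611).

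Fance, Fancc, Fancf and Fancl had uncalled values of 0.34, 0.17, 0.08 and 0.41 in tdTom positive against untreated cells. Fance, the core subunit that binds Fancd2, was highest in tdTom negative Rspo1 cells, at 24.3, 24.6 and 28.0 CPM against 15.9, 15 and 16.3 in untreated and 18.9, 21.8 and 18.9 CPM in tdTom positive libraries. It was 0.70 higher than in untreated cells (edgeR adjusted p = 0.00239), and 0.32 with the offset (edgeR adjusted p = 0.0684). At 61.4% it has the highest GC content of the members. Its difference of -0.37 between the sorts (edgeR adjusted p = 0.0441) was lost in 6 of the 9 leave-one-out fits, all those without a replicate 1 or 3 (edgeR adjusted p up to 0.221), without the passage block (0.0752) and with the offset (-0.03). The rises of Fancc and Fancg in tdTom negative Rspo1 against untreated cells, 0.42 and 0.46, were lost in 9 and 8 of the 9 leave-one-out fits (edgeR adjusted p up to 0.111 and 0.236) and with the offset (0.22 and 0.24). The fit that kept Fancg was that without untreated replicate 2. Fancl, the subunit with the ubiquitin ligase activity, was called in tdTom negative Rspo1 cells only with the offset (0.62). Fancf was at 1.74 to 2.3, 2.18 to 3.35 and 1.96 to 2.32 CPM in untreated, tdTom negative Rspo1 and tdTom positive libraries.

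The ID complex is the target of the core, and both of its genes were higher in tdTom positive cells than in both other groups. Fancd2 (ENSMUSG00000034023, chr6:113531682-113597017, plus strand) was at 1.05, 2.47 and 1.58 CPM in untreated, 1.94, 3.74 and 4.83 in tdTom negative Rspo1 and 8.47, 11.1 and 11.1 CPM in tdTom positive libraries, which were far above the rest. It rose by 2.65 (SE 0.25, edgeR adjusted p = 3.89e-05) against untreated and 1.62 against tdTom negative Rspo1 cells, the latter 1.13 with the offset. Its rise of 1.03 in tdTom negative Rspo1 against untreated cells was lost without replicate 3 of either group (edgeR adjusted p up to 0.0606) and without the passage block (0.0744), and was called at 1.43 with the offset. Its partner Fanci began higher and moved less, from 12.2, 10.9 and 11.0 CPM in untreated to 20.4, 22.0 and 22.9 CPM in tdTom positive libraries (0.93, SE 0.14). In tdTom negative Rspo1 libraries it was at 15.2, 15.8 and 18.0 CPM, 0.52 above untreated on the log2 scale and 0.75 with the offset. The call without the offset was lost without replicate 3 of either group (edgeR adjusted p up to 0.0769). The difference of Fanci between the sorts, 0.42 (edgeR adjusted p = 0.0306), was lost in 6 of the 9 leave-one-out fits, those without any Rspo1 library (edgeR adjusted p up to 0.143), without the low-count filter (0.0926), without the passage block (0.059) and with the offset (0.11). Fanci shares 16.0% of its exon bases with Polg.

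The last 4 members act later or beside recombination, and 2 of them were higher in tdTom positive than in untreated cells. Polq, the polymerase of a repair route that joins ends at short matches (ENSMUSG00000034206, chr16:37011786-37095417, plus strand), was at 0.739, 1.67 and 1.06 CPM in untreated, 1.04, 1.69 and 0.55 in tdTom negative Rspo1 and 6.11, 9.34 and 4.62 CPM in tdTom positive libraries. Its difference between the sorts, 2.63 (SE 0.26), was the largest of all members without the offset; with it Polq had 1.97 and Rad54b 2.04. Polq rose by 2.52 (SE 0.26) against untreated cells. Atad5, which unloads the PCNA clamp after synthesis, was at 4.15, 4.31 and 4.32 CPM in untreated, 2.63, 2.8 and 2.33 in tdTom negative Rspo1 and 12.6, 8.8 and 12.5 CPM in tdTom positive libraries. It rose by 1.40 (SE 0.19) in tdTom positive cells. Its fall of 0.72 in tdTom negative Rspo1 cells (edgeR adjusted p = 0.0168) was lost without tdTom negative Rspo1 replicates 1 or 3 (edgeR adjusted p up to 0.104), and with the offset its sign turned (0.12, edgeR adjusted p = 0.674).

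Mus81 and Eme1 together form a nuclease that cuts joint DNA molecules, and neither was called in tdTom positive against untreated cells (0.28 and 0.37). Mus81 was at 15.7, 12.7 and 14.5 CPM in untreated, 26.8, 25.2 and 19.8 in tdTom negative Rspo1 and 17.7, 18.0 and 16.3 CPM in tdTom positive libraries. It was highest in tdTom negative Rspo1 cells, 0.73 above untreated (edgeR adjusted p = 0.00289) and called at 0.43 with the offset. The difference between the sorts, -0.46, was lost in 5 of the 9 leave-one-out fits, those without any tdTom positive replicate or tdTom negative Rspo1 replicates 1 or 2 (edgeR adjusted p up to 0.132), without the passage block (0.0586) and with the offset (-0.17). Eme1 was 0.44 higher in tdTom negative Rspo1 than in untreated cells, a call lost without replicate 1 or 3 of either group (edgeR adjusted p up to 0.124) and with the offset (0.17).

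The fold change of a member in tdTom negative Rspo1 against untreated cells went with its GC content, as it did across all genes. Over the 38 members the rank correlation was 0.511 without and 0.0588 with the offset; the members share their libraries, and this is a description. The 13 members of lowest GC content, 40.8 to 44.4%, had a median of -0.37 without and 0.12 with the offset, and 6 of them were called lower without it. The 13 of highest GC content, 47.0 to 61.4%, had medians of 0.42 and 0.24. In tdTom positive against untreated cells the same low-GC members had medians of 1.40 and 1.33, so the offset moved them little. There the 13 members of highest GC content had lower medians, 0.37 and 0.34, and the 12 in between had 1.58 without the offset. From lowest to highest GC content 9, 12 and 5 members were called higher without it. Over the 38 members the rank correlation with GC content was -0.363 without and -0.343 with the offset. The part of GC content in these differences was not tested.

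**Figure D4:**
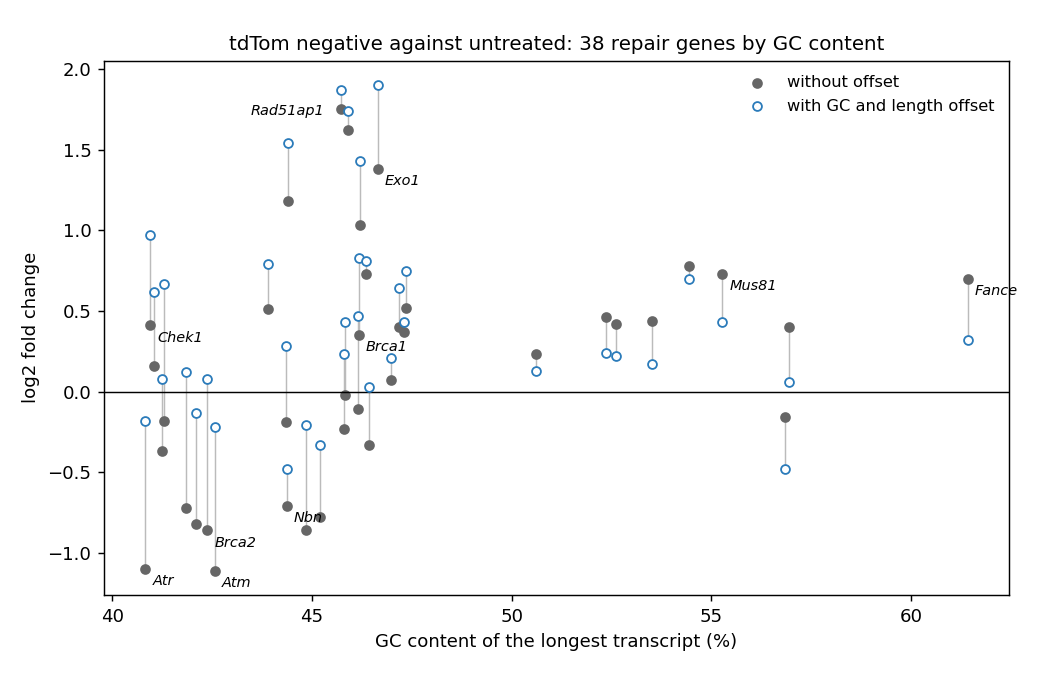
Log2 fold change of tdTom negative Rspo1 against untreated cells for the 38 repair genes (vertical axis) by the GC content of the longest transcript in percent (horizontal axis). Grey points are without and open blue points with the GC and length offset, joined by a line for each gene; the low-GC genes Atm, Atr and Brca2 move from near -1 towards 0.

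The other repair genes were counted in the same way. Of 48 further homologous recombination and Fanconi genes, 15 were higher in tdTom positive than in untreated cells by edgeR, with a median log2 fold change of 0.21. The largest rise among them was that of Clspn, the adaptor that hands Chek1 to Atr (3.03). Of 7 mismatch repair genes 4 were higher, with a median of 0.51. Of 11 genes of end joining without a template, Xrcc6 was called, at 0.49, with a median of 0.07 for the list. Of 12 nucleotide excision repair genes Xpc was called, at -0.53, with a median of 0.14. The shares called were 31.2%, 57.1%, 9.09% and 8.33% for the further recombination, mismatch, end joining and excision genes, beside 13.2% of all genes. The 30 proliferation genes had a median of 1.94. In tdTom positive against tdTom negative Rspo1 cells the medians were 0.41, 0.45, 0.17, -0.05 and 0.77 for the further recombination, mismatch, end joining, excision and proliferation genes, and 0.07, 0.27, -0.01, -0.17 and 0.70 with the offset. Whether the 38 members differ from these lists was not tested.

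Levels per transcript length were read from the deposited FPKM. In untreated cells the members ranged in their means from 0.132 ± 0.0538 FPKM (SD, n = 3) for Polq and 0.135 ± 0.0346 for Rad51b to 8.41 ± 1.89 for Topbp1. Eme1 at 8.09 ± 1.02, Rad54l at 7.83 ± 1.27, Fance at 7.05 ± 0.305 and Mus81 at 6.8 ± 0.746 FPKM lay within the spread of Topbp1. Among the lowest in untreated cells were also Rad51c at 0.247, Exo1 and Fancd2 at 0.304, Brip1 at 0.305 and Rad54b at 0.326 FPKM. In tdTom positive cells the top was Topbp1 at 15.7 ± 2.4 FPKM, followed by Eme1 at 10.5 ± 0.084, and the lowest mean was that of Polq at 0.767 ± 0.287 FPKM. Rad51c at 0.834 ± 0.241 and Rad51b at 0.851 ± 0.361 FPKM lay within its spread.

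The members were also compared between passages of the organoids. Between passages 10 and 5, with group in the model, 3 of the 38 were called by edgeR, beside 9.07% of all genes. Atm and Topbp1 were lower at passage 10 by log2 fold changes of -0.71 and -0.53, and Rad51b was higher by 1.29. The calls of Atm and Topbp1 were lost in 5 of the 9 leave-one-out fits, those without a passage 5 library or without the untreated or tdTom negative Rspo1 library of passage 10 (edgeR adjusted p up to 0.108 and 0.103). That of Rad51b was lost in 7 of the 9, all but those without the untreated or tdTom negative Rspo1 library of passage 6 (edgeR adjusted p up to 0.25), and with DESeq2 (0.0593). Between passages 6 and 5 no member was called by edgeR, beside 2.49% of all genes. An unadjusted edgeR p under 0.05 was found for 5 of the 38 members and for 2621 of the 17011 genes. DESeq2 called 1 member, Rad51b. Within passages, 35 members were higher in the tdTom positive than in the untreated library at all 3 passages, beside 23.4% of all genes, and 30 were higher in the tdTom positive than in the tdTom negative Rspo1 library at all 3, beside 36.3% of all genes.

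Since many genes of these pathways are known to be transcribed under E2F factors, the members' promoters were searched for the words bound by these factors. RefSeq promoter windows, from 250 bases before to 50 after a gene's start on GRCm38.p6, were matched for 30 of the 38 members, all but Exo1, Fancd2, Nbn, Rad50, Rad51d, Rad54b, Rbbp8 and Xrcc2. The search began with the word TTCCCGC, then took the word TTCGCGC, after that the word TTGCCGC, and ended with the word TTGGCGC. On either strand and with overlaps allowed, any of these words stood in 18 of these 30 members (60.0%) and in 10.9% of 27025 genes with a window. Of the 21 matched members that were called higher in tdTom positive than in untreated cells 17 held such a word, and of the 9 that were not called Fancf did. The word CCAAT was in 60.0% of the members and 41.1% of genes, and TTTGAA, the cell-cycle homology word, in 13.3% and 20.2%. A match is a run of letters and not evidence of binding. The genes with a window were not limited to those tested and were not matched to the members in GC content. The part of base composition in these shares was not tested.

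The 5 windows printed here run from 250 bases before to base 30 from the start on, 5′ to 3′ on the gene's strand, with E2F words in capitals. They show Rad51ap1, Brca1 and Polq, which rose strongly, Topbp1, which rose less from a higher level, and Mus81, which was not called in that comparison. The Rad51ap1 window is chr6:126939558-126939837 on the minus strand, that of Brca1 chr11:101551926-101552205 on the minus strand and that of Polq chr16:37011536-37011815 on the plus strand. The Topbp1 window is chr9:103305077-103305356 on the plus strand and the Mus81 window chr19:5488350-5488629 on the minus strand.
Rad51ap1: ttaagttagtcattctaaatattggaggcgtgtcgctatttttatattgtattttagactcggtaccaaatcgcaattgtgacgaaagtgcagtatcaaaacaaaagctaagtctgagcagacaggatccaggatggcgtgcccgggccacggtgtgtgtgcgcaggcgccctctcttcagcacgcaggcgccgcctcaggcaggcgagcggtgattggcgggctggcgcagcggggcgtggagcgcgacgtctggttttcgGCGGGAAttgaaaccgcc
Brca1: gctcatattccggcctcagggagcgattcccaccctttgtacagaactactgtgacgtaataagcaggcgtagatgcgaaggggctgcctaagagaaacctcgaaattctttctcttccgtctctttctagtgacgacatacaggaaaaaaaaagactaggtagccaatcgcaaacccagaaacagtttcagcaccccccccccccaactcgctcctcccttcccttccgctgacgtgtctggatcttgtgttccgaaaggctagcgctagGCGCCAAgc
Polq: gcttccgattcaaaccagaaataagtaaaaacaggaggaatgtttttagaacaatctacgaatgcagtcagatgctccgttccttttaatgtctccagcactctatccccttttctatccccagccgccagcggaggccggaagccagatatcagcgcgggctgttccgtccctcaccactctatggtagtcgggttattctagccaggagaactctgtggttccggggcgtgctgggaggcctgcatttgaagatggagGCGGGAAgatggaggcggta
Topbp1: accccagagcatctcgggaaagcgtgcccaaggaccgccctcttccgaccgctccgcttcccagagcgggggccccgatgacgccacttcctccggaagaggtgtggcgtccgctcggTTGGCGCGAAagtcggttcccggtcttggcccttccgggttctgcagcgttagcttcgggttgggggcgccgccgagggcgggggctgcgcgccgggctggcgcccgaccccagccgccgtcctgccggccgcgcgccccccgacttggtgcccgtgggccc
Mus81: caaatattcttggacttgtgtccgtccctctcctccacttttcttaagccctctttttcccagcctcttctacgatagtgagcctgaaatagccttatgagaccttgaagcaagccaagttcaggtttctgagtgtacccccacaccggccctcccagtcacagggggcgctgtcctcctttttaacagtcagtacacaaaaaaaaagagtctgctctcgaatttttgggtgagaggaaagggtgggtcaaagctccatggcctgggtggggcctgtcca
In Rad51ap1 and Polq the same word, GCGGGAA, begins at bases 13 and 11 from the start on. In Brca1 the word GCGCCAA begins at base 22. In Topbp1 a pair of overlapping words begins 132 bases before the start, and the Mus81 window has no E2F word.

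The authors' deposited table of their own fits called 26 members higher in tdTom positive than in untreated cells, the same 26 as here, beside 14.7% of the genes with an adjusted p in that table. Their deposited table for tdTom positive against tdTom negative Rspo1 cells called 27 higher and 2 lower, beside 45.8% of its genes, and 2 members differed in call from edgeR. In the authors' deposited table for tdTom negative Rspo1 against untreated cells 9 were higher and 5 lower, beside 29.3% of its genes, and 8 members differed in call.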

How the data were processed

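Reads were single-end, 75 bp long, from 100 ng of total RNA, per the labels' protocols. The submitters' processing notes name Trimmomatic 0.35, FastQC 0.11.2, STAR 2.5.1b, featureCounts, DESeq2 and the build GRCm38; the strand setting and annotation are not given in the sources used here. Each library's deposited file holds raw counts and FPKM per gene, per the file headers, and the authors deposited tables of log2 fold changes and adjusted p-values, used only where named.

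The 38 genes, the other lists and the tests were chosen with earlier results of these data known. A gene of the wider recombination list is not reported here. Named genes are all 38 members and, of the other lists, those that a count or a largest value singles out. Counts were fitted in R 4.3.3 with edgeR 4.0.16 (quasi-likelihood, TMM scaling, filterByExpr with a minimum count of 10 and total of 15) on group and passage over all 9 libraries, which left 17011 genes; the threshold was an adjusted p of 0.05. The standard error is the fold change over the square root of F. CPM use the TMM-scaled library sizes. Same-numbered libraries share a passage per the labels. With the group means subtracted, they correlated at 0.123 to 0.573 (9 pairs), and other pairs at -0.476 to 0.0826 (18 pairs), so passage is the block. The GC and length offset subtracts a spline (5 degrees of freedom each) fitted per library on the longest GENCODE M21 transcript (GRCm38), known for 17001 genes. Replicates differed by more than sampling noise (chi-square per gene 52.7 to 480). Scripts were tested on simulated data. Alternatives were DESeq2 1.42.0, other scalings, no filter, no block, the 6 libraries of a comparison, and leaving out each library. Tables were made with Python 3.11.15.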

Additional observations from a re-analysis of the deposited data

Results flagged for a closer look

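For 6 members the 2 Rspo1 sorts lay on opposite sides of the untreated cells, with both differences from untreated cells and the difference between the sorts called by edgeR. Of all genes tested, 0.435% had this pattern of calls. The difference of tdTom positive against tdTom negative Rspo1 cells was 2.37 log2 units for Brca2, 1.93 for Fancm, 2.12 for Atad5, 1.34 for Rad50, 1.65 for Atm and 1.24 for Topbp1. With the GC and length offset these differences were 1.37, 1.21, 1.22, 0.82, 0.70 and 0.80, and edgeR still called all 6, with adjusted p-values from 0.000867 to 0.00322. The values of tdTom negative Rspo1 against untreated cells were -0.86, -0.86, -0.72, -0.78, -1.11 and -0.33 in the same order, and 0.08, -0.21, 0.12, -0.33, -0.22 and 0.03 with the offset, where edgeR called none of them (adjusted p from 0.057 to 0.874). The part of GC content and length in the pattern was not tested beyond these values.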

How the results depend on the processing

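The count of members called in tdTom positive against untreated cells was 21 to 26 in all alternatives, and 20 of the 26 members kept their call in all 16. For tdTom positive against tdTom negative Rspo1 cells 20 of 27 members did so, and for tdTom negative Rspo1 against untreated cells 7 of 22. Leaving out each library in turn gave 13 to 23 members in the last comparison, the lowest without tdTom negative Rspo1 replicate 3. It gave 0 to 7 members for passage 10 against 5 and 0 to 1 for passage 6 against 5.

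Without the replicate block, the genes called over the whole table numbered 886, 4141 and 3724 in place of 2247, 6624 and 6039, and the members 23, 23 and 17. With the offset 4002 and 3550 genes were called in the last 2 comparisons. The leave-one-out ranges of the 3 counts were 1112 to 2519, 3674 to 8264 and 3229 to 7427, and for passages 405 to 3594 (10 against 5) and 105 to 846 (6 against 5). Without the low-count filter 2784 genes and 6 members were called for passage 10 against 5, and 1193 genes and 2 members for 6 against 5. For the latter DESeq2 gave 836 genes and 1 member, and the offset 1 member.

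Signs turned in tdTom negative Rspo1 against untreated cells with the offset for Brca2 (0.08), Bard1 (0.23), Brip1 (0.67), Blm (0.28), Fancb (0.08), Atad5 (0.12), Mre11a (0.43), Topbp1 (0.03) and Polq (0.47). In tdTom positive against tdTom negative Rspo1 cells they turned for Fancf (0.02), Fancl (-0.28) and Eme1 (0.17). Between passages, signs were checked only for Atm, Topbp1, Rad51b, Rad51c, Chek1, Xrcc3, Fancd2, Polq and Atr, here and in the leave-one-out fits. Of these, the sign of Atm turned with the offset between passages 6 and 5 (-0.02). The near-zero value of Mre11a in tdTom negative Rspo1 cells was 0.05 with upper-quartile scaling, 0.01 with relative log expression scaling, 0.01 with DESeq2 and 0.04 without the filter. Leave-one-out ranges that cross zero in tdTom negative Rspo1 against untreated cells were -0.13 to 0.30 for Palb2, -0.51 to 0.04 for Brip1, -0.53 to 0.29 for Xrcc3, -0.10 to 0.05 for Mre11a and -0.35 to 0.13 for Polq. The others were -0.18 to 0.08 for Rad51d between the sorts, and -0.16 to 0.18 for Atm and -0.41 to 0.11 for Atr between passages 6 and 5. The cause was not tested. Depth limits the members of few reads, such as Rad51b with 7 counts in its lowest library.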
